A study of Mus musculus with 8 samples.

Results

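Ephb2, Ephb3, Ephb4, Ephb6 and Epha2 encode Eph receptors, and Efnb1, Efnb2 and Efna1 encode ephrins, the membrane-bound ligands of these receptors. The 8 genes were taken as a group by their gene symbols in the deposited table of scanner values. This rule used no measured value, but earlier results of these data were known when the members were chosen. Each gene was represented by 1 probe, so that the group held 8 of 17914 genes and 8 of 25697 probes. Gene expression was measured on 8 Illumina BeadChip arrays of ileal tumours from mice heterozygous for the Min mutation of Apc (APCmin/+), which lose the second copy of this Wnt pathway brake in the tumours they form. Of these, 4 tumours came from mice that also carried VP16, the transactivation domain of a herpesvirus protein (control 1 to 4), and 4 from mice that carried VP16LXRa, the same domain fused to liver X receptor alpha, a sterol-activated nuclear receptor (VP16LXRa 5 to 8). All mice were 8 months old and of a mixed C57BL/6J and FVBN strain, so the Apc mutation, age and strain were shared by both groups. The promoter that drives the transgenes, the sex of the mice and whether each array was a separate animal are not stated in the labels, and p-values therefore measure the spread between these samples.

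Eph receptors are receptor tyrosine kinases that bind ephrins on a neighbouring cell, and the contact sends signals into both cells that usually push them apart. In the intestinal epithelium Ephb2 and Ephb3 are Wnt target genes expressed in the crypt, where the proliferating cells and Paneth cells lie, whereas B-type ephrins are expressed towards the villus. The opposed gradients are known to keep cells of the crypt and of the villus in their places. Ephb4 and its ligand Efnb2 are also the classical markers of veins and arteries. In RNA from whole tumours, fewer cells of a type and less RNA per cell cannot be told apart.

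The array signal was detected, by a detection p under 0.05 against the negative control beads, for between 49.0% and 54.7% of probes per array. VP16LXRa 5 stood apart from the other arrays. Its median correlation with the others over all tested probes was 0.869, against 0.910 to 0.942 for the other 7. Where a gene had more than 1 tested probe, its probes scattered more widely on VP16LXRa 5, with a 90th percentile of this scatter of 2.19 on the log2 scale against 0.641 to 0.842 elsewhere. Values that rest on this array are therefore given with and without it. The epithelial markers were detected, as the label of an intestinal tumour requires. All 9 epithelial marker genes on the array passed the filter for testing, with the keratin Krt8 between 15.03 and 15.43 and Krt20 between 13.10 and 14.48 on the log2 scale. On average 8 of the 9 were lower with VP16LXRa and 1 was higher, none past the threshold. Their median log2 difference was -0.31, or -0.13 without control 3. Fabp6, the bile acid binding protein of the ileum, lay between 13.82 and 15.13 on the log2 scale, while the probes of Slc10a2, Fabp1 and Fabp2 were not detected on any array. Among markers of other cell types, all 7 tested smooth muscle genes were on average higher with VP16LXRa, none past the threshold. Their median log2 difference was 1.15, or 0.49 without control 3, the array with the lowest smooth muscle score, at -2.96 against -0.47 to 1.11 on the other 7.

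None of the Eph receptors and ephrins differed between the genotypes beyond the spread between tumours. The probes of Ephb2, Ephb4, Epha2, Efnb1, Efnb2 and Efna1 were detected on all 8 arrays and were tested. Ephb3 was detected on 1 array and Ephb6 on none, so neither passed the filter of detection on at least 4 arrays. Of the 6 tested members, 3 were on average higher in VP16LXRa tumours and 3 lower, with log2 differences from -0.37 to 0.35 and a median of -0.023. Over all 13426 tested probes the median was 0.0018, and the mean was lower in VP16LXRa tumours for 49.8%. With limma, 0 of the 6 passed an adjusted p under 0.05, as did 0% of all tested probes. At an unadjusted p under 0.05 there were also 0 of 6, against 2.53% of all tested probes. The groups overlapped for each of the 6 members, and 1.74% of all tested probes had groups that did not overlap, 1.01% with VP16LXRa higher and 0.722% with VP16LXRa lower. The smallest unadjusted limma p of a member was 0.194, for Ephb4, and the adjusted p of all 6 was 0.998.

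**Figure D1:**
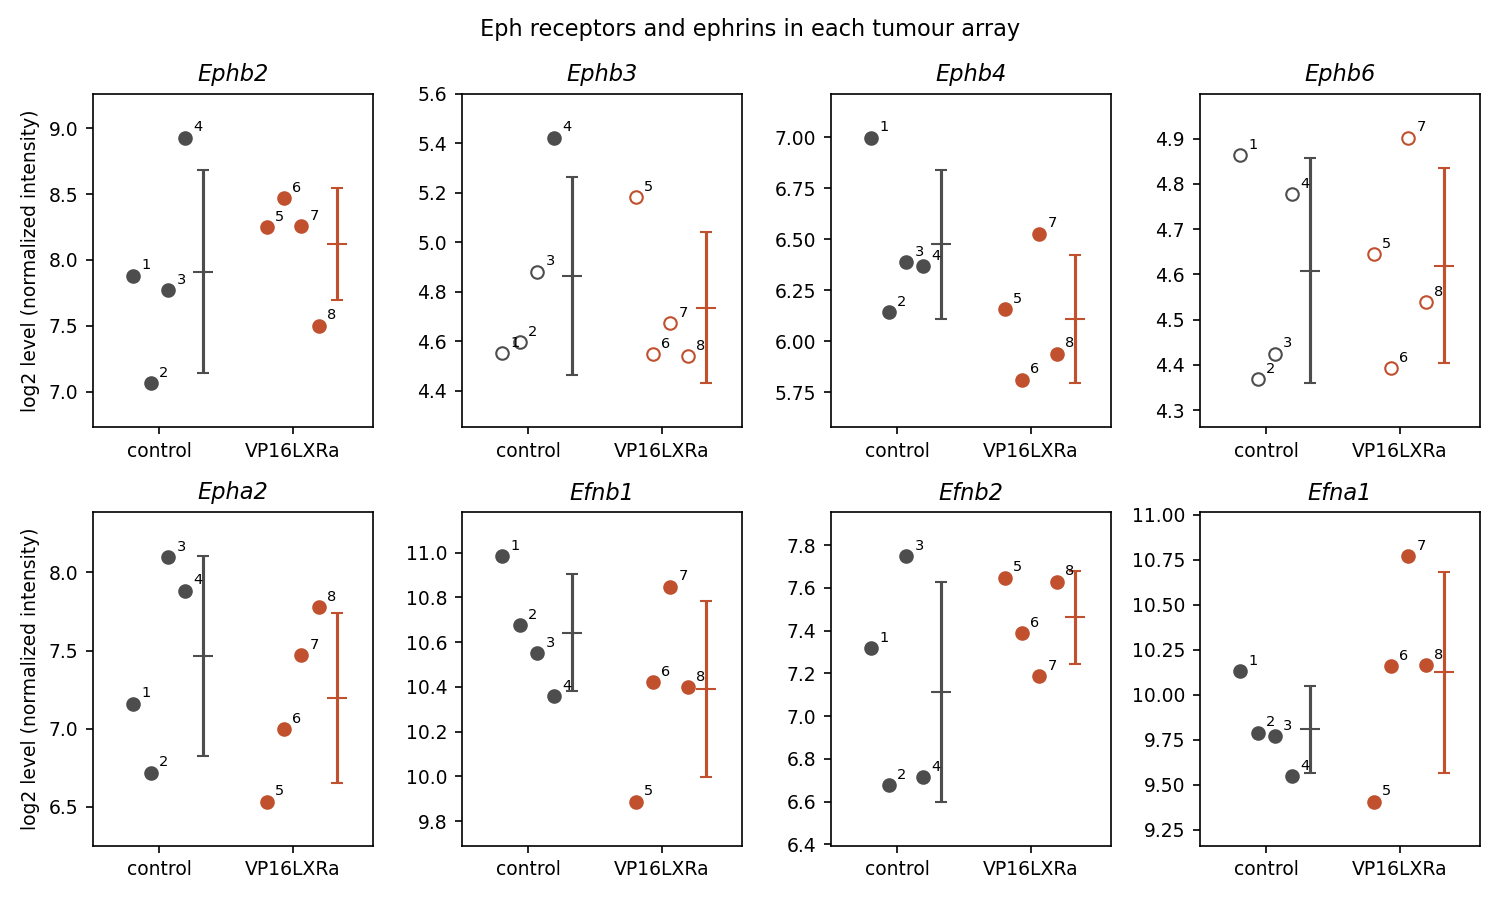
Normalized log2 level of each of the 8 genes (vertical axis, a separate scale for each gene) in the control and VP16LXRa tumours. Filled points are arrays on which the probe was detected and open points are arrays on which it was not, the small number is the replicate, and the bar beside each group is the mean ± SD (n = 4). The groups overlap in every panel, and Ephb3 and Ephb6 have mostly or only open points.

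Ephb2, the crypt receptor and Wnt target, varied more among the control tumours than it differed between the genotypes. Its scanner signal was 308, 235, 394 and 622 in control 1 to 4 and 327, 538, 376 and 316 in VP16LXRa 5 to 8. After background correction and normalization the log2 levels were 7.88, 7.06, 7.77 and 8.93 in control 1 to 4 and 8.25, 8.47, 8.26 and 7.50 in VP16LXRa 5 to 8. Both the highest and the lowest of the 8 values were controls, control 4 and control 2, and the VP16LXRa tumours lay between them. The controls averaged 7.91 ± 0.77 (SD, n = 4) and the VP16LXRa tumours 8.12 ± 0.42 (SD, n = 4), which gave a log2 difference of 0.21 (SE 0.39, adjusted p = 0.998 with limma). The 95% confidence interval ran from a level 0.623 times to one 2.14 times that of the controls. The direction was not settled, since the difference was -0.078 without control 2 and 0.55 without control 4. The deposited table gives neither a transcript definition nor a chromosome for this probe.

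Across the 8 tumours the level of Ephb2 ran with that of other Wnt target genes. A Wnt target score was taken for each array as the mean log2 deviation, from the mean of all arrays, of the 15 tested genes of a list of Wnt targets. The score was -0.44, -0.99, -0.44 and 1.70 in control 1 to 4 and 0.17, 0.095, 0.51 and -0.60 in VP16LXRa 5 to 8. Control 4 was thus highest and control 2 lowest in both measures, and VP16LXRa 8 was the lowest of its group in both. The correlation of Ephb2 with the score over the 8 arrays was 0.92 (Pearson) and 0.90 (Spearman), and 0.93 (Pearson) after the group means had been removed. Without control 4 and control 2, the arrays farthest from the median score, it was 0.86 over the other 6, and without VP16LXRa 5 it was 0.93. These are descriptions, 1 of 72 such relations between 6 members and 12 gene lists, and the points share their array's RNA and normalization.

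Of the 15 Wnt targets, 13 had a correlation with Ephb2 above 0.5, where 18.9% of the other 13425 tested probes did. Notum, a secreted Wnt inhibitor, had a Pearson correlation with Ephb2 of 0.96, and Prox1, a transcription factor of intestinal tumours, one of 0.91. For Lgr5, the stem cell receptor, it was 0.78, and for Axin2, a negative regulator of the pathway, 0.56. The remaining pair, Ascl2, a stem cell transcription factor, and Tcf7, a partner of β-catenin, had values of 0.48 and 0.25. These genes, apart from Axin2, were chosen to be named after their values were seen. Several depended on control 4. Without that array 9 of the 15 Wnt targets had a correlation with Ephb2 above 0.5, against 17.4% of the other tested probes. It was then 0.93 for Notum, 0.62 for Lgr5, 0.33 for Axin2, 0.047 for Ascl2 and -0.0084 for Tcf7. Not all of the 15 were detected on every array. Notum and Lgr5 were detected on 3 of 4 control and 4 of 4 VP16LXRa arrays, and Prox1 on 3 of 4 in each group. Apcdd1 and Nkd1 were detected on 2 of 4 control arrays. Control 2, the lowest array for Ephb2, was also the lowest for Notum (4.30), Prox1 (4.85) and Lgr5 (4.75). Values on arrays without detection were not above background but enter these correlations and the score.

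**Figure D2:**
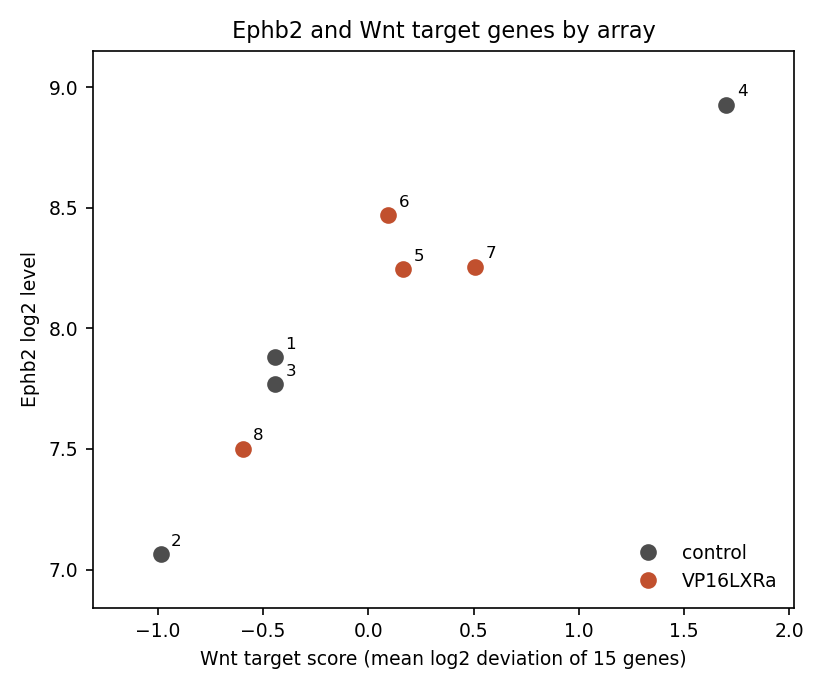
Log2 level of Ephb2 (vertical axis) against the Wnt target score (horizontal axis, mean log2 deviation of 15 genes) for each array, with the replicate number beside each point. Control 4 lies at the upper right and control 2 at the lower left, and the 4 VP16LXRa tumours lie between them.

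The Wnt targets themselves did not separate the genotypes. On average 8 of the 15 lay higher with VP16LXRa and 7 lay lower, the median log2 difference was 0.018, and 0 passed an adjusted p under 0.05 or an unadjusted p under 0.05 with limma. Without control 4 the median was 0.48. Ccnd1, cyclin D1, differed by 0.12 on the log2 scale (SE 0.32) and Axin2 by 0.29 (SE 0.38). Markers of absorptive enterocytes ran the other way from Ephb2. Of the 6 tested, 5 were higher on average in VP16LXRa tumours, none past the threshold. Their median log2 difference was 0.48, or 0.13 without control 4 and 0.15 without control 1. The enterocyte score ranged from -1.43 to 0.89 in control and from 0.019 to 0.76 in VP16LXRa tumours. The correlation of that score with Ephb2 was -0.70 (Pearson) and -0.79 (Spearman) over the 8 arrays, and -0.92 (Pearson) over the 6 left without control 4 and control 1. T cell markers had a correlation of -0.80 (Pearson) and -0.74 (Spearman) with Ephb2, and of -0.11 (Pearson) without control 2 and control 4, so that relation rests on these arrays. Cd8a was not detected on any array. Of the 6 tested T cell markers 4 were lower on average in VP16LXRa tumours, none past the threshold. Their median log2 difference was -0.23, or 0.35 without control 2. The T cell score ranged from -1.17 to 1.55 in control and from -0.71 to 0.47 in VP16LXRa tumours. The Paneth score ran with Ephb2, at 0.68 (Pearson) and 0.74 (Spearman), and 0.79 (Pearson) without control 1 and control 4. Of the 7 tested Paneth markers 5 were higher on average with VP16LXRa and 2 lower, none past the threshold. Their median log2 difference was 0.44, or 0.042 without control 1. The fibroblast and endothelial scores had Spearman correlations of 0.74 and 0.76 with Ephb2, but Pearson correlations of 0.54 and 0.37. The part of these cell types in the level of Ephb2 was not tested.

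The probes of other genes whose pattern over the 8 arrays was most like that of Ephb2 included those of Btbd3 and Fxyd3, with Pearson correlations of 0.984 and 0.983 and a Spearman correlation of 0.98 each. Without control 2 and control 4 their Pearson correlations with Ephb2 were 0.943 and 0.963. They are the highest of 13425 values, so correlations of this size are partly a product of the search.

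The promoters of Ephb2 and Epha2 are shown because the level of Ephb2 ran with Wnt targets and because that of Epha2 was the only one among the members to hold either of the motifs searched. Each sequence is the 250 bases before the annotated RefSeq start on build GRCm38.p6, on the strand of the gene, from a RefSeq table in which all 8 genes were found. Ephb2 lies on the minus strand at chr4:136836013-136836262 and Epha2 on the plus strand at chr4:141300971-141301220. Capitals mark CTTTGA, the core of the site bound by Tcf and Lef factors, and TGACCT, the reverse complement of AGGTCA, the core bound by nuclear receptors.
Ephb2: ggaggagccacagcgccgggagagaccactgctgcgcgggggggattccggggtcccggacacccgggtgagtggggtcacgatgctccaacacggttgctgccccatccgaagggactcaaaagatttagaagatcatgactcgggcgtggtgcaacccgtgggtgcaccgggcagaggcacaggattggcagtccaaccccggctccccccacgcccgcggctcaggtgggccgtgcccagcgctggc
Epha2: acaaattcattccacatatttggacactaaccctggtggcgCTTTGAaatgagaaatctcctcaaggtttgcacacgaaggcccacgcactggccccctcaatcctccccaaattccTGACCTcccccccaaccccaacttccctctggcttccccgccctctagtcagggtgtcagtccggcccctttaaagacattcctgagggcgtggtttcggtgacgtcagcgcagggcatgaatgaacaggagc

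Both strands were searched in the 9 windows of the 8 genes, Efna1 having 2. CTTTGA was found in 13.8% of all 32851 windows of this length in the table and AGGTCA in 14.0%, and among the 9 windows each was found in that of Epha2 alone. In it CTTTGA lay 209 to 204 bases and TGACCT 133 to 128 bases before the start, without overlap. The window of Ephb2 held neither. A pair of AGGTCA copies in the same direction with 4 bases between them, the arrangement bound by LXR with its partner RXR, was in none of the 9 and in 0.0152% of all windows. A match describes these letters only, and its absence says nothing of the factors.

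The single probe of Ephb3, the second B-type receptor of the crypt, was close to the background. Whether this probe works on this BeadChip could not be checked, so a low signal need not mean little transcript. The Ephb3 probe was detected on 1 of 4 control arrays and on 0 of 4 VP16LXRa arrays. The detected array was control 4, at a log2 level of 5.42 and a scanner signal of 163, which is also the array with the highest Ephb2 and the highest Wnt target score. That match rests on 1 detection and was noted after the values were seen. The other 7 arrays lay between 4.54 and 5.18 on the log2 scale, values that were not above background and have no order. The measured means were 4.86 in control and 4.74 in VP16LXRa tumours, and no fold is given because the bound for the undetected VP16LXRa arrays, 5.10, lay above the mean of the controls.

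Ephb4, the receptor of veins, was the member with the smallest p. Its scanner signal was 218, 178, 221 and 212 in control 1 to 4 and 154, 189, 194 and 182 in VP16LXRa 5 to 8. The log2 levels were 7.00, 6.14, 6.39 and 6.37 in control and 6.16, 5.81, 6.53 and 5.94 in VP16LXRa tumours. Control 1 was the highest and VP16LXRa 6 the lowest, and VP16LXRa 5 and VP16LXRa 7 lay within the range of the controls. The log2 difference was -0.37 (SE 0.26, adjusted p = 0.998 with limma), with a 95% interval from -0.95 to 0.22. Leaving out single arrays moved it from -0.51, without VP16LXRa 7, to -0.19, without control 1.

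Ephb6, an Eph receptor whose kinase domain is inactive, was not detected on any of the 8 arrays. Its scanner signals lay between 117 and 139, so its level was not measurable in either genotype. Whether the Ephb6 probe works could not be checked either.

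Epha2, an A-type receptor of epithelial cells, ranged more widely than any difference between the groups. Its log2 levels were 7.16, 6.72, 8.10 and 7.88 in control 1 to 4 and 6.53, 7.00, 7.47 and 7.78 in VP16LXRa 5 to 8. The 2 highest were control 3 and control 4 and the lowest was VP16LXRa 5. The controls averaged 7.46 ± 0.64 (SD, n = 4) and the VP16LXRa tumours 7.20 ± 0.55 (SD, n = 4), which gave a log2 difference of -0.27 (SE 0.38, adjusted p = 0.998 with limma). Without VP16LXRa 5 the difference was -0.048, and without control 3 it was -0.057. Its 95% interval with all arrays ran from 0.457 to 1.51 times the level of the controls.

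The ephrin Efnb1, the B-type ligand of crypt and villus cells and the gene of ephrin B1, had scanner signals of 1922, 1591, 2144 and 1393 in control 1 to 4 and of 847, 1682, 1751 and 1587 in VP16LXRa 5 to 8. The corresponding log2 levels were 10.98, 10.68, 10.55 and 10.36 in control and 9.89, 10.42, 10.85 and 10.40 in VP16LXRa tumours. VP16LXRa 5 was the lowest array, and the other 3 VP16LXRa arrays lay within the range of the controls. The log2 difference was -0.25 (SE 0.26, adjusted p = 0.998 with limma), and -0.085 without VP16LXRa 5. The probes most like Efnb1 over the 8 arrays were those of Oasl1, Anp32a and Cblc, with Pearson correlations of 0.990, 0.980 and 0.978 and Spearman correlations of 0.93, 0.98 and 0.98. Without VP16LXRa 5 and control 1 their Pearson correlations were 0.958, 0.947 and 0.947. Such probes were not named for Ephb3, which was not tested.

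Efnb2, the ligand that marks arteries and is also made by epithelial cells, had log2 levels of 7.32, 6.68, 7.75 and 6.72 in control 1 to 4 and of 7.65, 7.39, 7.19 and 7.63 in VP16LXRa 5 to 8. Control 2 and control 4 were lowest and control 3 was highest, and the VP16LXRa tumours lay between them. The controls averaged 7.11 ± 0.51 (SD, n = 4) and the VP16LXRa tumours 7.46 ± 0.22 (SD, n = 4), which gave a log2 difference of 0.35 (SE 0.29, adjusted p = 0.998 with limma), with a 95% interval from -0.29 to 0.99. It was 0.20 without control 2 and 0.55 without control 3.

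Efnb2 ran against the macrophage markers. All 8 of the tested macrophage markers were lower on average with VP16LXRa, none past the threshold, and their median log2 difference was -0.30. This median was -0.066 without control 2, -0.067 without control 4, -0.15 without VP16LXRa 8 and -0.72 without control 3. C1qa was detected on 4 of 4 control and 3 of 4 VP16LXRa arrays, and the other markers on all 8 arrays. The macrophage score ranged from -0.82 to 0.80 in control and from -0.50 to 0.10 in VP16LXRa tumours. The correlation of that score with Efnb2 was -0.96 (Pearson) and -0.90 (Spearman) over the 8 arrays, and -0.95 (Pearson) without control 3 and control 4. Over all arrays it was the largest in size of the 72 Pearson correlations between members and gene lists. A value of this size is therefore partly a product of the search. Of the 11 tested endothelial markers 9 were higher with VP16LXRa, 0 past the adjusted threshold, and their median log2 difference was 0.22, or -0.072 without control 3. Their score had a correlation of -0.60 (Pearson) and -0.55 (Spearman) with Efnb2 and of 0.017 (Pearson) with Ephb4. Without control 3 and VP16LXRa 8 the value for Efnb2 was -0.17. The endothelial score ranged from -1.16 to 0.30 in control and from -0.37 to 0.42 in VP16LXRa tumours, and the lowest was control 3, the array with the highest Efnb2. The part of these cells in the level of Efnb2 was not tested.

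Efna1, the gene of the A-type ligand ephrin A1, which binds Epha2, had scanner signals of 1104, 898, 1297 and 866 in control 1 to 4 and of 630, 1415, 1662 and 1364 in VP16LXRa 5 to 8. The log2 levels were 10.13, 9.79, 9.77 and 9.55 in control and 9.41, 10.16, 10.77 and 10.16 in VP16LXRa tumours. VP16LXRa 5 lay below every control, and the other 3 VP16LXRa tumours lay above every control. With all arrays the log2 difference was 0.32 (SE 0.30, adjusted p = 0.998 with limma), with a 95% interval from -0.36 to 0.99. Without VP16LXRa 5 the groups did not overlap, as was the case with VP16LXRa higher for 1.75% of all tested probes, and the log2 difference was 0.55 (SE 0.25, unadjusted p = 0.0569 and adjusted p = 0.9998 with limma). In that setting 2.54% of all tested probes had an unadjusted p under 0.05, and 1.85% did not overlap with VP16LXRa lower. Efna1 thus did not pass either threshold in either setting. Without VP16LXRa 7 the difference was 0.10.

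**Figure D3:**
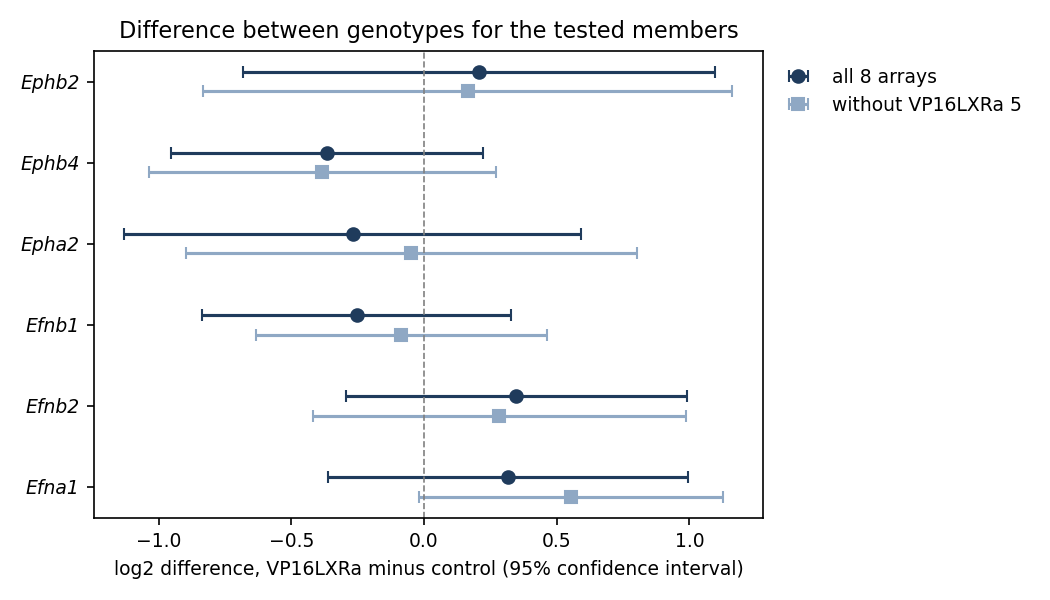
Log2 difference between VP16LXRa and control tumours (horizontal axis) for the 6 tested members, with 95% confidence intervals from limma. Circles are from all 8 arrays and squares from 7 arrays, without VP16LXRa 5. Every interval includes 0, and the estimate for Efna1 moves from 0.32 to 0.55.

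The ephrins Efna1 and Efnb1 varied together from tumour to tumour within each genotype, at a different offset in each. After the group means had been removed, their correlation over the 8 arrays was 0.98 (Pearson) and 0.90 (Spearman). It was 0.97 (Pearson) without VP16LXRa 5 and 0.98 (Pearson) without VP16LXRa 5 and VP16LXRa 7. With all 8 arrays this was the highest of the 15 pairs of tested members. With the group means kept in, the correlation was 0.67 (Pearson) and 0.55 (Spearman), and without VP16LXRa 5 it was 0.49 (Pearson) and 0.32 (Spearman). The share of other probes with such a correlation within groups to either gene was not computed. The log2 level of Efna1 minus that of Efnb1 in the same array was -0.86, -0.89, -0.78 and -0.81 in control 1 to 4 and -0.48, -0.26, -0.08 and -0.24 in VP16LXRa 5 to 8. The groups did not overlap, and VP16LXRa 5, which was low for both genes, lay with its own group. The controls averaged -0.84 ± 0.047 (SD, n = 4) and the VP16LXRa tumours -0.27 ± 0.17 (SD, n = 4), so that Efna1 relative to Efnb1 was higher by 0.57 on the log2 scale.

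This pair was 1 of 15 examined and was chosen after its values were seen, so no test is given for it. It was the only one of the 15 whose groups did not overlap, counted in either direction. As background, the difference between Efna1 and each of the 13425 other tested probes was higher in all VP16LXRa than in all control arrays for 3.28% of them, and the difference between each other tested probe and Efnb1 for 1.01%. These shares count a single direction and each involves a gene of the pair. The share over probe pairs in general, in either direction, was not computed, so how rare such a pair is cannot be said. The change stayed between 0.51 and 0.64 whichever array was left out. It lay between 0.52 and 0.58 under the other processings, including the scanner signal with no background correction or normalization. The groups did not overlap in any of these settings, but each setting reuses the arrays on which the pair was chosen. Lack of overlap in them was therefore largely given beforehand and is no further evidence for the offset.

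**Figure D4:**
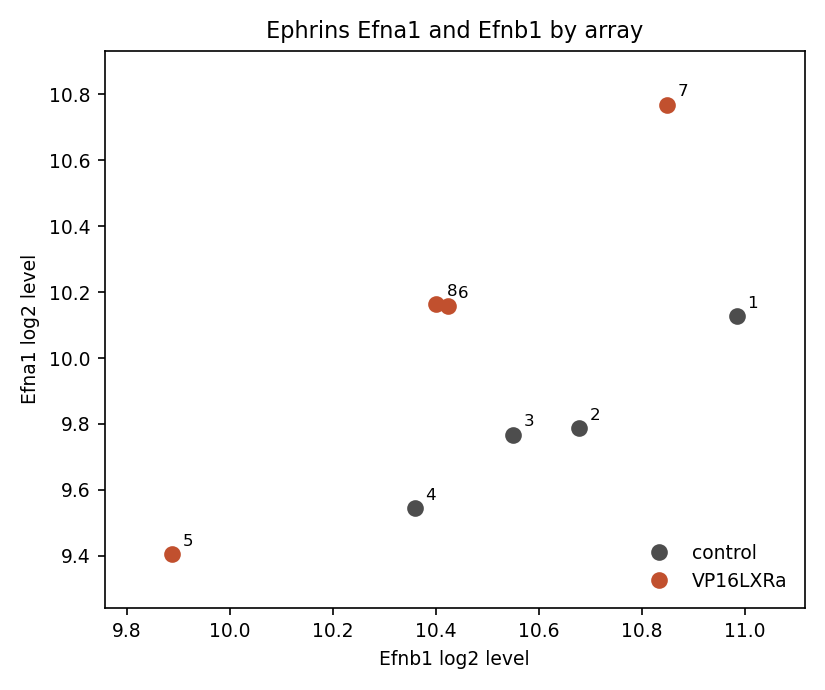
Log2 level of Efna1 (vertical axis) against that of Efnb1 (horizontal axis) in each array, with the replicate number beside each point. Efna1 minus Efnb1 is higher in every VP16LXRa array than in every control array, at a mean of -0.27 against -0.84. VP16LXRa 5 lies below every control on both axes.

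Of the 14 other Eph receptors and ephrins, all were on the array, with 23 probes, and 5 were detected on enough arrays to be tested. With VP16LXRa 2 of them lay higher and 3 lower, at log2 differences from -0.59 to 0.80 and a median of -0.36. The median was 0.19 without VP16LXRa 5 and 0.12 without control 4. None passed an adjusted or unadjusted p under 0.05 with limma. The 5 were Epha1, Epha4, Epha7, Efna4 and Efna5, and Ephb1, Epha10, Efna2 and Efna3 were not detected on any array. Epha1, a receptor of epithelial cells, had log2 levels of 9.11, 9.68, 10.28 and 8.21 in control 1 to 4 and of 6.85, 9.10, 9.05 and 9.93 in VP16LXRa 5 to 8. VP16LXRa 5 was far below the rest, and the other 3 lay within the range of the controls. The log2 difference was -0.59 (SE 0.66), and 0.042 (SE 0.47) without VP16LXRa 5, so its direction rested on that array. The 2 further tested probes of Epha1 differed by -0.80 and -0.51, and by -0.27 and -0.037 without VP16LXRa 5. Efna5, an A-type ephrin, differed by 0.80 (SE 0.52), with control 3 at 5.34 and the other 3 controls between 7.35 and 7.63. Without control 3 the log2 difference of Efna5 was 0.27 (SE 0.34), and without VP16LXRa 5 it was 0.53 (SE 0.53).

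Genes that carry Eph and ephrin signals inside the cell were examined as a list of 39, of which 34 were on the array and 23 were tested. With VP16LXRa 10 of them lay higher and 13 lower, the median log2 difference was -0.029, or 0.044 without VP16LXRa 5, and 0 passed an adjusted p under 0.05 with limma. Sdcbp, which encodes syntenin, a scaffold that binds the tail of B-type ephrins, differed by -0.064 on the log2 scale (SE 0.19), and Crk, an adaptor protein, by 0.16 (SE 0.23). At an unadjusted p under 0.05 there was 1 of 23, where 2.53% of all tested probes passed, and this was Abl1, a tyrosine kinase named here after its values were seen. Its log2 level was 4.88 ± 0.30 (SD, n = 4) in control, where it was detected on 1 of 4 arrays, and 5.78 ± 0.53 (SD, n = 4) in VP16LXRa tumours, where it was detected on all 4. It therefore passed the filter through the VP16LXRa arrays, and its control level was mostly at background. Its groups did not overlap, as for 1.01% of all tested probes with VP16LXRa higher, and its adjusted p was 0.998 with limma.

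Epha2 had a correlation with the mean score of these 23 genes of 0.92 (Pearson) and 0.90 (Spearman) over the 8 arrays, and of 0.80 (Pearson) over the 6 left without VP16LXRa 5 and control 2. It too is a description, taken from the 72 relations between members and gene lists. The score itself varied little, from -0.14 to 0.13 in control and from -0.15 to 0.12 in VP16LXRa tumours. Among themselves the 6 tested members did not move as a block. Over the 15 pairs the Pearson correlation of their levels ranged from -0.30, for Ephb2 and Efnb1, to 0.67, for Efnb1 and Efna1. Without VP16LXRa 5 it ranged from -0.39, for Epha2 and Efnb1, which was 0.21 with all arrays, to 0.79, for Ephb4 and Efnb1. For Efnb1 and Efna1 it was then 0.49. For Ephb4 and Efnb2, receptor and ligand in vessels, it was -0.12, and -0.074 without VP16LXRa 5. For Epha2 and Efna1, a receptor and its ligand in epithelium, it was 0.16, and -0.19 without VP16LXRa 5. For Ephb4 and Efnb1 it was 0.62 (Pearson) with all arrays, with a Spearman correlation of 0.55.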

How the data were processed

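Per the file headers, the deposited table holds an average bead signal (an intensity on a linear scale, without background subtraction or normalization) and a detection p-value for 25697 probes on 8 arrays. The submitters' processing notes name GenomeStudio; its version, the BeadChip type and the annotation release were not stated. A second deposited table holds the authors' processed intensity values and was used as an alternative, after raising values below a floor of 16 to that floor and taking log2. Probes kept the table's symbols, updated through RefSeq where older: 20733 matched by symbol, 3872 by synonym and 1092 not at all.

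In limma 3.58.1 (R 4.3.3), nec removed background by normexp (offset 16), with the negative controls reconstructed from detection p-values. Arrays were then quantile normalized and put on the log2 scale. The 13426 probes detected (p under 0.05) on 4 or more of the 8 arrays entered lmFit and eBayes. Tests were two-sided, and Benjamini-Hochberg adjustment ran over all these probes. Differences are VP16LXRa minus control. The fit was checked on simulated data. Where a list gene had several tested probes, the brightest stood for it. Named were all members, the genes of each list described that passed the threshold (or, if none, its 2 brightest) and the 3 probes most like Ephb2 and Efnb1, of which 1 is not reported here. Members and lists were chosen with earlier results of these data known. The number of arrays limits the precision. Alternatives covered background, offset, normalization, filter, array weights, the variance prior, the authors' table and each array left out.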

Additional observations from a re-analysis of the deposited data

Results flagged for a closer look

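Within the groups of 4 arrays, 62 sets of values were examined for an array far from the other 3, and 4 were found, where chance flags about 1 in 20, or 3.1. None of the 4 concerned the 8 members or the Efna1 minus Efnb1 difference. Efna5 was at a log2 level of 5.34 in control 3, with the other controls from 7.35 to 7.63. The endothelial score was -1.16 in control 3, with the other controls from 0.099 to 0.30. Krt20 was at 13.10 in control 4, with the other controls from 14.32 to 14.48. Ccnd1 was at 11.84 in VP16LXRa 8, with the other VP16LXRa arrays from 12.73 to 12.87.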

How the results depend on the processing

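The count of member probes past the adjusted threshold, and that at an unadjusted p under 0.05, was 0 in every alternative tried. Over all probes the count past the adjusted threshold, 0 here, was 1 with 75th percentile scaling, 2 with array weights and between 0 and 2 with single arrays left out (1 without control 3, 2 without VP16LXRa 5 and 1 without VP16LXRa 8). Of 17 alternatives, 4 leave the difference of a member as it is by construction (both other filters, the other variance prior and averaging probes). In the other 13, 77 of 78 fits of the 6 tested members kept the direction. The exception was Ephb2, which ranged from -0.078, without control 2, to 0.55, without control 4, when single arrays were left out. Under the other alternatives Ephb2 ranged from 0.12 to 0.46, Ephb4 from -0.53 to -0.15 and Efna1 from 0.29 to 0.39, the values nearest 0 coming without background correction. Efnb1 and Efnb2 kept to between -0.26 and -0.23 and between 0.19 and 0.40, and Epha2 to between -0.30 and -0.10. No paired analysis was possible because the replicate numbers of the groups, 1 to 4 and 5 to 8, do not overlap. Low signal limits Ephb3 and Ephb6, whose single probes were at or near background, and a probe that does not work cannot be told from little transcript. The alternatives for the Efna1 minus Efnb1 difference, for Epha1 and Efna5, and for the Wnt target correlations were chosen after seeing the data.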
